A study of Mus musculus with 6 samples.

Results

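The 6 testis-specific serine kinase genes of the mouse, Tssk1, Tssk2, Tssk3, Tssk4, Tssk5 and Tssk6, were selected by gene symbol from the 32285 features of a single-cell RNA data set of whole testes. All 6 were found. The libraries came from 6 males of the inbred strain C57BL/6J. In the nicotine group (n = 3 mice) the drinking water held 200 µg/mL nicotine over 8 weeks, beginning at 3 weeks of age, and the control group (n = 3 mice) had normal water. All mice were sampled at 11 weeks, and both testes of a mouse made 1 droplet library, so the mouse is the replicate. Droplet sequencing counts transcripts as unique molecular identifiers (UMIs) per cell barcode, and levels below are UMIs of 1 gene per 1000000 UMIs of the summed cells (CPM) unless stated. In this 3' chemistry a transcript gives 1 UMI whatever its length, so levels of different members are set side by side with no length scaling.

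The testis-specific serine kinases are protein kinases made by male germ cells after meiosis, while round spermatids turn into sperm. Known partners include Tsks, a substrate of the Tssk1 and Tssk2 kinases, Odf2, a tail outer dense fibre protein that the Tssk4 kinase phosphorylates, and Tsacc, a cochaperone of the Tssk6 kinase. In mice, joint deletion of Tssk1 and Tssk2 makes males sterile, and so does loss of Tssk6, whose kinase is needed for normal sperm chromatin packing. Whether the transcripts of the 6 genes share 1 schedule along spermatid maturation, and whether nicotine moves their level or schedule, were the questions asked of the counts.

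Positions are given on GRCm38 (GENCODE vM21 annotation). Tssk1 (ENSMUSG00000041566; chr16:17894223-17897922, plus strand) and Tssk2 (chr16:17898637-17900024, plus strand) are single-exon genes with 714 bases between them, and Tssk1 overlaps Dgcr2 on the opposite strand. Tssk6 (chr8:69902184-69903518, plus strand) is also a single-exon gene and lies opposite to Yjefn3 and Ndufa13. Tssk3 (chr4:129489014-129491022, minus strand) has 2 exons. Tssk4 (chr14:55650184-55652539, plus strand) has 3 to 4 exons depending on the transcript, and Tssk5 (chr15:76371952-76374938, minus strand) has 2 to 8. No member overlaps a gene on its own strand. The Tssk1 and Tssk2 transcripts share an exact run of 113 bases, while no other pair of members shares a run longer than 14 bases. Runs of at least 50 bases common to both genes lie 634 to 920 bases from the 3' end of Tssk2 and 2914 to 3200 bases from that of Tssk1. A read from inside these runs cannot be assigned to either gene by its sequence, and the sources used here do not state how such reads were counted.

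Promoters of 5 members were matched by symbol in the RefSeq table (GRCm38.p6); no entry for Tssk5 was used here. The 150 bases before the RefSeq start are shown for the adjacent pair and for the members with the earliest and the latest profile among those matched, because these genes divide the spermatid schedule described below. Capitals mark matches to TGACNTCA on either strand, letters close to the cAMP response element that the spermatid factor CREM binds. The motif was chosen after the sequences had been seen.
Tssk1 (chr16:17894053-17894202, plus strand): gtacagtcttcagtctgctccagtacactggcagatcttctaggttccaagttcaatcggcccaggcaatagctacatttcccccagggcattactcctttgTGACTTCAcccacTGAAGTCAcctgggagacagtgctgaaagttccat
Tssk2 (chr16:17898487-17898636, plus strand): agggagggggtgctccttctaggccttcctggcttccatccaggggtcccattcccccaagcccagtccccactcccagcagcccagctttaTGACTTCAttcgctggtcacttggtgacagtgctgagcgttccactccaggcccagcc
Tssk4 (chr14:55650034-55650183, plus strand): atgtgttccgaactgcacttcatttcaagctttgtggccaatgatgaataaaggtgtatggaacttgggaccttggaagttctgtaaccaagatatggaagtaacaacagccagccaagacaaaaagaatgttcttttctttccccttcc
Tssk6 (chr8:69902034-69902183, plus strand): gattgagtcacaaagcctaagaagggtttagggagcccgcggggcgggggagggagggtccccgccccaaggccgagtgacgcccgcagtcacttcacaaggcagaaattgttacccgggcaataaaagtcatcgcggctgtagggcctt
The RefSeq start of Tssk1 (base 17894203) lies 20 bases upstream of the GENCODE start given above, and distances here are counted from the RefSeq start. Tssk1 held TGACTTCA beginning 48 bases before its start and TGAAGTCA, the same letters on the other strand, 35 bases before it. Tssk2 held TGACTTCA 58 bases before its start. No match to TGACNTCA was in the 300-base windows (250 bases before to 50 after the start) of Tssk3, Tssk4 and Tssk6. The RefSeq start of Tssk3 (base 129490770) lies downstream of its GENCODE start (base 129491022). The whole Tssk3 window (chr4:129490721-129491020) is therefore inside the GENCODE gene span, and no bases upstream of that span were searched. The palindromic cAMP response element, TGACGTCA, was in none of the windows of the 5 members. Its shorter form TGACG had 1 match in Tssk6 and none in the other members matched. Of all 32851 promoter windows of that length in the table, 8.834% held TGACNTCA, 1.79% TGACGTCA and 20.81% TGACG. The proximal stretch was 62% G and C in Tssk2 and 60.67% in Tssk6, against 50% in Tssk1 and 41.33% in Tssk4.

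The control libraries held 75923816 to 88329607 UMIs and the nicotine libraries 67853893 to 73596886. After filters and doublet removal, 61945 cells were kept and fell into 34 clusters, 29 of which were named "-like" from marker genes. The members and their partner lists were kept out of the genes used for clustering. All 10 round spermatid markers and all 10 elongating spermatid markers were above the mean of the other classes in the classes named for them. For late spermatocyte-like cells this held for 7 of 10 markers, for low-UMI late spermatocyte-like cells for 8 (3 of them by at least 1.5-fold) and for low-UMI elongating spermatid-like cells for 5. The joint early and late spermatocyte-like class had 5 of 10 early markers (4 by at least 1.5-fold) and 7 of 10 late markers (2) above that mean. The prefix low-UMI marks germ cell classes whose median UMI number was below the median of 2470 over the kept cells. Pairs of libraries shared 25 to 54 barcodes, under 1% of either.

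The members differed in the spermatid class that held most of their UMIs. Round spermatid-like cells (7685 cells) held 85.3% of all Tssk5 UMIs, 71.2% of Tssk4 and 53.2% of Tssk1. Elongating spermatid-like cells (16385 cells) held 54.3% of Tssk2, 66.7% of Tssk3 and 74.3% of Tssk6. Low-UMI elongating spermatid-like cells (5000 cells, median 1297 UMIs) held another 10.1% of Tssk3 and 13.7% of Tssk6. These shares depend on the number of cells in a class. Per cell, Tssk2 was higher in round (14.8 ± 1.71 UMIs) than in elongating spermatid-like cells (10.99 ± 1.04). Tssk3 (2.94 ± 0.27 and 5.89 ± 0.51) and Tssk6 (3.01 ± 0.18 and 14.8 ± 1.65) were higher in elongating cells on that scale too.

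Tssk5 was the scarcest member and, among the named classes, the most restricted to young spermatids. In round spermatid-like cells its level was lowest at 26.1, median 28.8 and highest at 34.6 CPM over the 6 mice, and in elongating spermatid-like cells it was 0.402 to 0.741 CPM. Late spermatocyte-like cells had 5.68 ± 1.42 CPM (SD, n = 6), so the transcript was 7.94 ± 1.87 times higher in the youngest round spermatid-like cluster (cluster 9; fold per mouse, n = 6). No mouse overlapped between those cells and any elongating cluster. The unnamed cluster 7, described below, overlapped cluster 9 in its Tssk5 level.

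Tssk4, at a higher level, was also highest in round spermatid-like cells but declined later along the order than Tssk5. It stood at 278 to 353 CPM (median 319.9) in round spermatid-like cells and already at 120 to 196 CPM (median 171.8) in late spermatocyte-like cells, the highest relative to its peak of all members. The round value was the higher in 6 of 6 mice, by 0.95 ± 0.22 on the log2 scale (two-sided exact sign-flip test over mice, adjusted p = 0.03125, the smallest that 6 mice allow). For each member the classes in this test were its highest and next, picked from the same levels. The test therefore describes how alike the mice were. Cluster 5, the first elongating cluster, had 141 ± 16.1 CPM and cluster 3, the next, 37.9 ± 4.52 CPM. In the elongating clusters beyond it the mean level was 9.34 to 13.6 CPM, close to the 12.97 ± 3.02 CPM of Leydig-like cells, the androgen-producing cells between the tubules.

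Tssk1 was high across the round and the first elongating clusters and low in the later ones. Its level was 624 to 709 CPM (median 664.3) in round spermatid-like cells, and it was 0.61 ± 0.08 lower on the log2 scale in elongating spermatid-like cells, in 6 of 6 mice (same test, adjusted p = 0.03125). Cluster 3 had 728 to 904 CPM (median 761.5), cluster 1, the next in order, had 136 to 198 CPM (median 143.6), cluster 18 had 168 to 256 CPM (median 216.0), and cluster 0 had 36.2 to 47.5 CPM (median 40.4). Cluster 18 was above cluster 1 in 5 of 6 mice, with overlap, so the decline did not follow the order at each step. Cluster 1 held 0.19 ± 0.01 times the level of cluster 3 (n = 6). The values of clusters 15, 5 and 3 overlapped between mice and were not separated.

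Tssk2, the neighbour of Tssk1 on the chromosome, lasted longer as a share of the UMIs. In late spermatocyte-like cells Tssk2 was the lower of the pair, at 166.3 to 207.7 CPM against 243.7 to 310.5 CPM of Tssk1, without overlap. In cluster 9 the pair stood at 538 ± 29.5 CPM (Tssk1) and 512 ± 28.4 CPM (Tssk2). Tssk2 was then at 1786 ± 106 CPM in cluster 3, at 816 ± 30.4 CPM in cluster 0 and at 1210 ± 66.9 CPM in cluster 4, the most advanced, where Tssk1 had 44.0 ± 6.46 CPM. Per cell it went down, from 19.8 ± 1.99 UMIs in cluster 3 to 4.08 ± 0.50 in cluster 4. The class levels were 1287 to 1478 CPM (median 1371) in elongating and 1084 to 1466 CPM (median 1188) in low-UMI elongating spermatid-like cells. That difference was 0.16 ± 0.08 on the log2 scale, and the ranges overlapped although each mouse was higher in elongating cells (adjusted p = 0.03125). As UMIs per cell the levels were 10.99 ± 1.04 and 1.72 ± 0.25. The CPM difference missed the threshold when cells were thinned to 500 UMIs (adjusted p = 0.0625).

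Tssk3 and Tssk6 were highest at the end of the order. Tssk3 went from 97.7 ± 4.72 CPM in cluster 9 to 521 ± 19.1 CPM in cluster 3 and 2230 ± 80.1 CPM in cluster 4. Tssk6 had the widest range, from 27.6 ± 4.03 CPM in cluster 9 to 1296 ± 97.2 CPM in cluster 3 and 5569 ± 328 CPM in cluster 4. In low-UMI elongating spermatid-like cells Tssk6 reached 5627 to 7317 CPM (median 6349), the highest level of any member in any class. Both genes were higher there than in elongating spermatid-like cells in 6 of 6 mice, by 1.5 ± 0.05 (Tssk3) and 1.78 ± 0.07 (Tssk6) on the log2 scale (adjusted p = 0.03125 each).

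**Figure D1:**
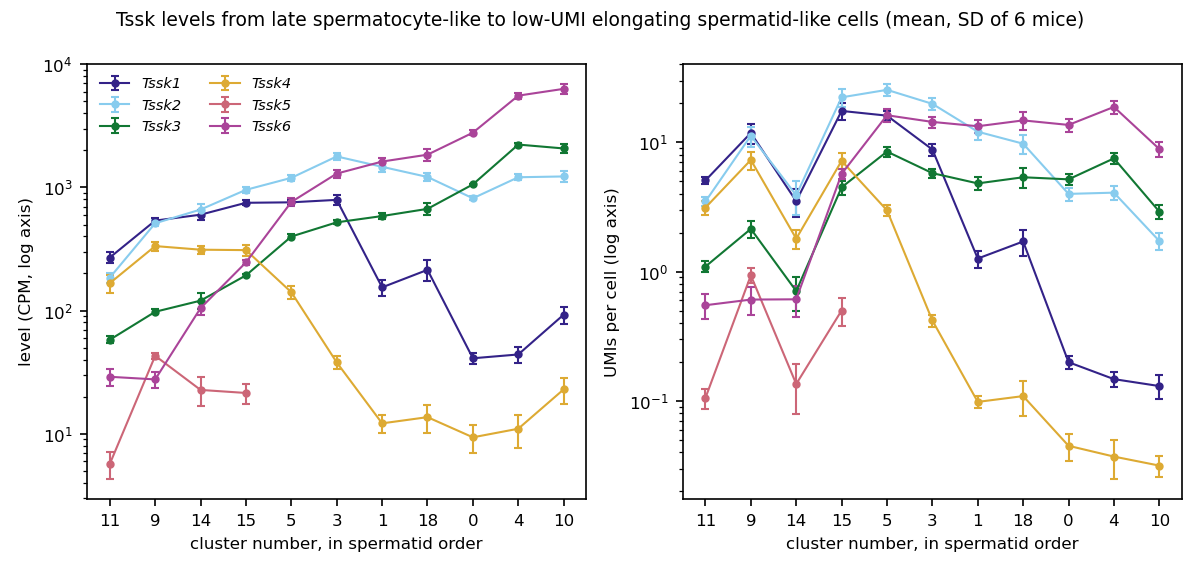
Level of each member in CPM (left, log axis) and as UMIs per cell (right, log axis) in late spermatocyte-like cluster 11, the round clusters 9, 14 and 15, the elongating clusters 5, 3, 1, 18, 0 and 4 and low-UMI elongating cluster 10, with points at the mean and bars at the SD of 6 mice. Points under 5 CPM or 0.02 UMIs per cell are left out. Tssk6 rises to the right in CPM, where it ends at 6324 CPM, but stays between 8.86 and 18.7 UMIs per cell from cluster 5 on.

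CPM is a share of a cell's UMIs, and the total fell along the order, from a median of 17015 UMIs per cell in cluster 9 to 2821.5 in cluster 4. Counted as UMIs per cell, Tssk6 was 16.2 ± 1.81 in cluster 5, 13.3 ± 1.46 in cluster 1 and 18.7 ± 2.18 in cluster 4. Tssk3 was 8.47 ± 0.74, 4.81 ± 0.55 and 7.50 ± 0.75 UMIs per cell in the same clusters. On that scale low-UMI elongating cells fell below elongating cells, by 1.02 for Tssk3 and by 0.75 for Tssk6 on the log2 scale, so the sign of this comparison depends on the unit. For Tssk1 the fall between clusters 3 and 1 held on both scales, from 8.78 ± 0.94 to 1.26 ± 0.19 UMIs per cell.

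The schedule was also read from single cells without cluster borders. Round and elongating spermatid-like cells were ordered by the log2 ratio of elongating to round marker UMIs and cut into 12 bins of equal size, and the position of a gene was its mean bin weighted by CPM in each mouse. The mean positions over 6 mice were 2.09 ± 0.12 for Tssk5, 2.97 ± 0.07 for Tssk4, 4.49 ± 0.24 for Tssk1, 6.87 ± 0.08 for Tssk2, 8.88 ± 0.10 for Tssk3 and 9.23 ± 0.06 for Tssk6. Each neighbour in this order followed the other in 6 of 6 mice (5 two-sided exact sign-flip tests, adjusted p = 0.03125 each). The order was sorted from these same positions, so the tests describe how alike the mice were. The closest pair, Tssk3 and Tssk6, was 0.357 ± 0.067 bins apart.

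**Figure D2:**
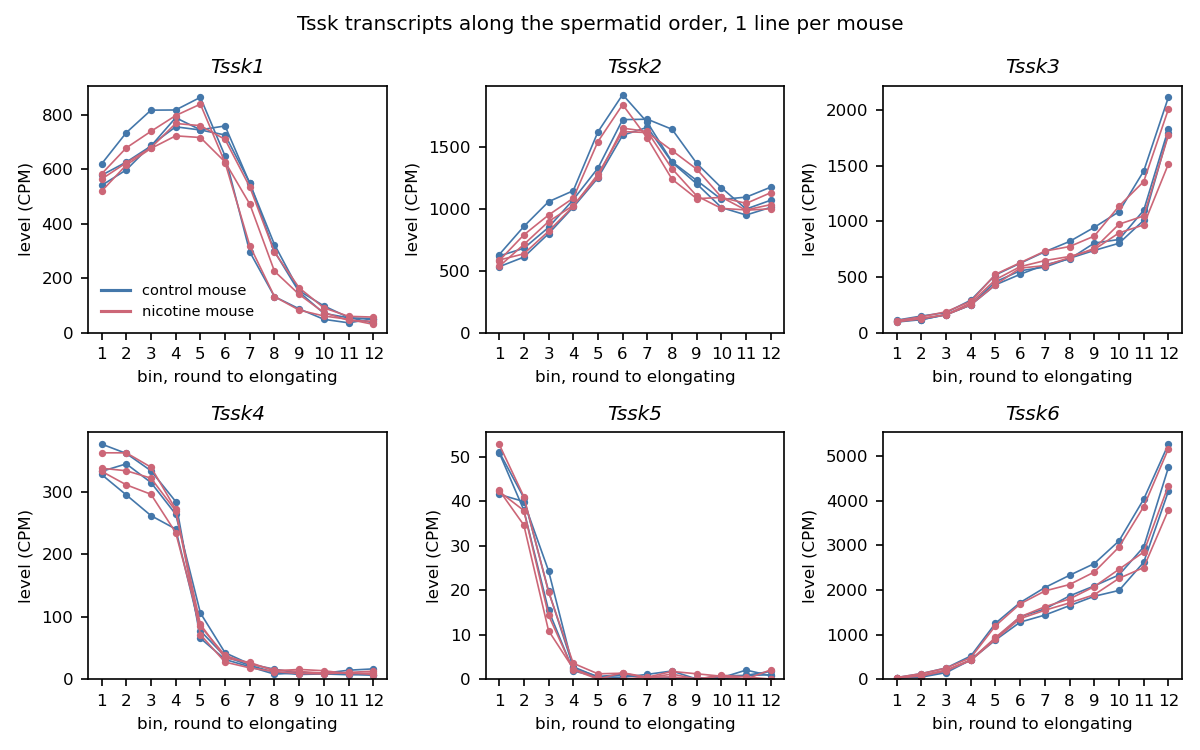
Level in CPM (vertical axis, from 0) against bin of the spermatid order (horizontal axis, 1 to 12, round to elongating) for each member, with 1 line per mouse, blue for control and red for nicotine. Tssk5 and Tssk4 have their highest means in bin 1 (46.9 and 344.8 CPM), the mean of Tssk1 peaks at 779 CPM in bin 5, Tssk2 at 1731 CPM in bin 6, and Tssk3 and Tssk6 are highest in bin 12; the lines of the groups interleave.

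The peak bin of Tssk1 was 5 in 2 of 6 mice and 4 in the others. Counted as UMIs per cell, the means peaked in bin 4 for Tssk1 and Tssk2, bin 5 for Tssk3, bin 11 for Tssk6 and bin 1 for Tssk4 and Tssk5, so the bin schedule above is one of CPM. The decline of Tssk1 was gradual over single cells, with 683, 454, 235 and 130 CPM in bins 6 to 9. The decline of Tssk5 was the earliest, from 46.9 ± 5.3 CPM in bin 1 to 17.4 ± 4.8 in bin 3 and 2.5 ± 0.6 in bin 4. Tssk4 held 260.7 ± 19.4 CPM in bin 4 and dropped to 82.1 ± 14.3 in bin 5. Tssk6 crossed in the other direction, from 29.9 ± 4.9 CPM in bin 1 to 202.5 ± 39.9 in bin 3 and 1011 ± 167 in bin 5. Control mouse 2 and nicotine mouse 2 differed from the other mice in Tssk1, with positions of 4.16 and 4.22 against 4.53 to 4.68, and with 297 and 320 CPM of Tssk1 in bin 7 against 473 to 551 CPM. The same mice stood apart in bin 11, with Tssk6 at 4036 and 3868 against 2503 to 2966 CPM and Tssk3 at 1451 and 1357 against 967 to 1099 CPM. They had 540 and 538 cells in bin 1, against 115 to 409 in the other mice. This split ran across the treatment groups.

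The makeup of the family therefore changed with stage. Among all Tssk UMIs of cluster 9, 34.7% were Tssk1, 32.9% Tssk2, 21.6% Tssk4 and 1.78% Tssk6. In cluster 3, Tssk2 led with 40.4%, Tssk6 had 29.1% and Tssk4 0.843%. In cluster 4, 61.5% were Tssk6, 24.6% Tssk3 and 0.48% Tssk1.

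**Figure D3:**
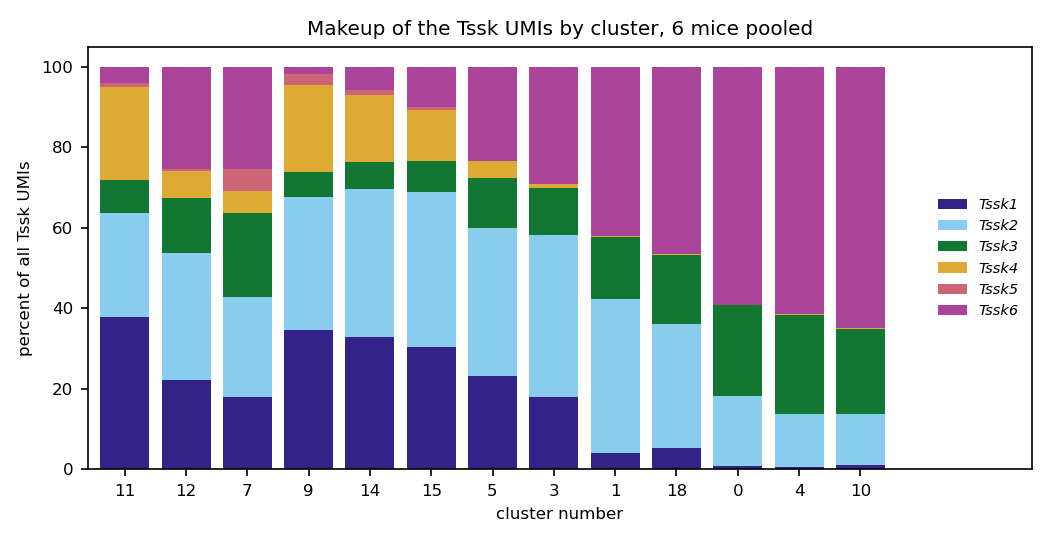
Share of each member among all Tssk UMIs (vertical axis, percent) per cluster with the 6 mice pooled, for late spermatocyte-like cluster 11, low-UMI late spermatocyte-like cluster 12, unnamed low-UMI cluster 7, and then the spermatid clusters in order. Tssk1 and Tssk4 shrink and Tssk6 grows from cluster 9 to cluster 10, where Tssk6 holds 64.9%.

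Low-UMI barcodes were compared with cells that should lack these transcripts, since free RNA in droplets gives UMIs to any barcode. Over all kept cells the 6 genes made up 17.3% (Tssk1), 31.5% (Tssk2), 13.7% (Tssk3), 6.25% (Tssk4), 0.477% (Tssk5) and 30.7% (Tssk6) of Tssk UMIs. In Sertoli-like cells, which support the germ cells inside the tubule, the shares were 17.6%, 31.5%, 13.6%, 4.197%, 0.304% and 32.8%, close to those of the whole suspension. Leydig-like cells had nearly the same shares, with 17.6% Tssk1 and 33.1% Tssk6. The Tssk levels of these classes, and those of early spermatocyte-like cells with 17.7% Tssk1 and 33.3% Tssk6, were read as background. Late spermatocyte-like cells stood apart, with 37.7% Tssk1, 23.3% Tssk4 and 4.07% Tssk6; their Tssk6 level of 29.0 ± 4.65 CPM was below the 61.5 ± 37.0 CPM of Leydig-like cells. The median UMI number was 15627 in late spermatocyte-like and 7154 in Leydig-like cells.

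Low-UMI late spermatocyte-like cells (cluster 12; 6790 cells, median 867 UMIs) had a makeup between those of late spermatocyte-like cells and the background. Their name is weakly held: the cluster had its highest marker score for round spermatids and its second for late spermatocytes. Markers were counted if at least 1.5-fold above all other cells and found in at least 10% of the cluster's cells. Round spermatids had 0 such markers and late spermatocytes 4. The cluster thus cannot be read as the same stage as late spermatocyte-like cells at lower depth. Their shares were 22.1% Tssk1, 6.63% Tssk4 and 25.3% Tssk6. Tssk6 stood at 203 to 376 CPM (median 294.2), overlapping the 226 to 334 CPM (median 309.4) of Sertoli-like cells. Elongating spermatid markers made up 2.49% of their UMIs, against 0.321% in late spermatocyte-like cells.

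Cluster 7, an unnamed low-UMI cluster (2094 cells, median 1425.5 UMIs) led by March1, Lrrtm3 and Mast4, stood out in Tssk5 and was described here after its values had been seen. The transcript was at 39.9 to 59.8 CPM (median 44.6) there, overlapping the 39.9 to 46.5 CPM (median 42.2) of the youngest round spermatid-like cluster 9. Tssk4 was 7.36 ± 0.89 times and Tssk1 3.81 ± 0.41 times higher in cluster 9 than in cluster 7, in 6 of 6 mice. Tssk5 thus made up 5.62% of the Tssk UMIs of cluster 7 and 0.477% of those of all cells. The Tssk5 level of cluster 7 rests on 163 UMIs. The share of Tssk3 was also higher there, at 20.8% against 13.7%. Fewer than 3 markers of any class met the 1.5-fold and 10% limits in the cluster. Between groups none of the 6 members was called in cluster 7 by edgeR (2 had an unadjusted p under 0.05), against 0.594% of all genes.

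Across the 12 named classes, the genes whose log2 levels followed each member most closely were found among 9308 genes with at least 50 CPM in some class. For Tssk1 they were BC049762 (Pearson r = 0.996 over 12 classes), Kif2b and Akap3, an anchoring protein of the sperm fibrous sheath. Tssk2 was most like Gm9999 (r = 0.994), Znrf4 and Prkcq. Tssk3 was most like Smcp (r = 0.987), a protein of the sperm mitochondrial capsule, 1700009N14Rik and Oaz3. Tssk4 was most like Tgif2lx1 (r = 0.993), Gm6880 and Kcne3, and Tssk5 like Gm32872 (r = 0.963), Gm41279 and 1700121L03Rik. Tssk6 was most like Tppp2 (r = 0.995), Gm614 and Spem2. Smcp and Oaz3 were also among the markers that named the elongating class. Among the members themselves the likeness was highest between Tssk3 and Tssk6 (r = 0.94) and lowest between Tssk5 and Tssk6 (r = -0.12); the classes share libraries, and these values are descriptions.

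The partner transcripts had schedules of their own. Tsks went from 154 ± 12.4 CPM in late spermatocyte-like to 448 ± 13.9 in round and 849 ± 53.0 in elongating spermatid-like cells, and remained at 764 ± 57.5 CPM in low-UMI elongating cells, a course closer to Tssk2 than to Tssk1. Tsacc was highest in elongating cells at 1646 ± 104 CPM and stood at 484 ± 47.2 CPM in low-UMI elongating cells, where Tssk6 was at its highest. Odf2 peaked in elongating cells at 4839 ± 381 CPM, the class in which Tssk4 had dropped to 45.2 ± 6.14 CPM. For the counts that follow, the low-UMI spermatocyte-like classes and the somatic classes were left out. Of 12 partner genes, 4 were highest in elongating, 2 in round and 6 in spermatocyte-like classes. Of 22 other germ cell kinases, 5 were highest in round, 4 in elongating or low-UMI elongating and 13 in spermatocyte-like classes.

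Nicotine did not detectably move the spermatid schedule. Mean positions differed between groups by -0.09 to 0.02 bins, and the largest of these, for Tssk3, was 8.92 ± 0.05 in control and 8.83 ± 0.12 in nicotine mice (n = 3 each; two-sided exact permutation test, p = 0.3). No difference passed the exact permutation test after adjustment over the 6 comparisons (adjusted p of 0.8 to 1), and 3 mice against 3 cannot go below p = 0.1. The groups overlapped in position for each of the 6 genes.

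Levels in the main spermatid classes gave no call either. In round spermatid-like cells Tssk1 stood at 676, 709 and 648 CPM in control and 624, 663 and 665 CPM in nicotine mice, and Tssk6 at 148, 156 and 159 CPM in control and 165, 150 and 174 CPM in nicotine mice. The groups overlapped. None of the 6 members was called in this class by edgeR's quasi-likelihood test, with log2 fold changes of -0.11 to 0.09 (adjusted p = 0.9997 for each), none had an unadjusted p under 0.05, and DESeq2 called none; 0% of all genes tested were called. In elongating spermatid-like cells log2 fold changes were -0.18 (SE 0.11, Tssk6) to 0.11 (SE 0.10, Tssk4) with 0 calls, no unadjusted p under 0.05 and none called by DESeq2, against 0.013% of all genes. The fitted change of Tssk1 there was -0.01 while its mean CPM was 425 ± 14.6 in control and 445 ± 14.3 in nicotine mice, so its sign depended on the scaling. In low-UMI elongating spermatid-like cells Tssk6 was at 6228, 7317 and 6523 CPM in control and 5777, 6470 and 5627 CPM in nicotine mice, with overlap. Tssk2, Tssk3 and Tssk6 had log2 fold changes of -0.27, -0.25 and -0.26 there with unadjusted p under 0.05 and none was called (edgeR adjusted p = 0.453, 0.464 and 0.455; DESeq2 called 0), against 0.0418% of all genes. With 1 exception, in low-UMI elongating cells under a block on replicate number (0.92% of all genes called), no alternative gave a call of a member in these 3 classes.

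**Figure D4:**
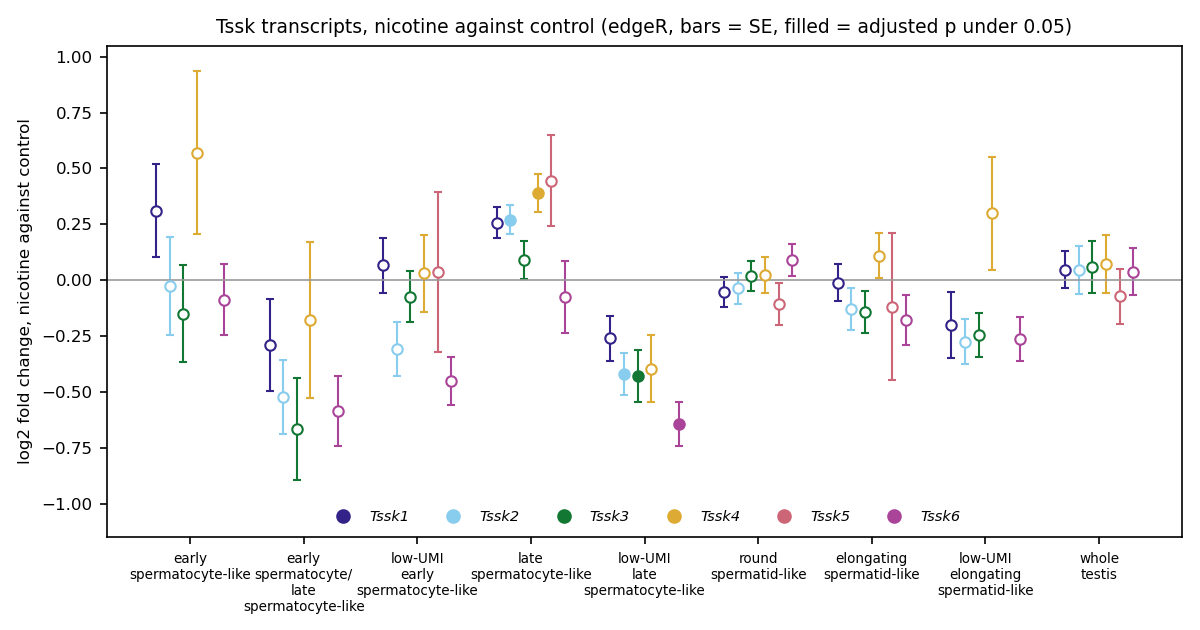
Log2 fold change of each member, nicotine against control (vertical axis), per germ cell class and in the whole testis, from edgeR on sums per mouse (n = 3 per group); bars are the SE and filled points have an adjusted p under 0.05. Filled points appear in late spermatocyte-like cells (Tssk2 at 0.27 and Tssk4 at 0.39) and, below 0, in low-UMI late spermatocyte-like cells (Tssk2, Tssk3 and Tssk6).

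Late spermatocyte-like cells had higher levels of 2 members in nicotine mice when counted in CPM. Tssk2 was at 167, 166 and 174 CPM in control and 194, 208 and 202 CPM in nicotine mice. All 3 nicotine mice were above all 3 control mice. The log2 fold change was 0.27 (SE 0.07; edgeR quasi-likelihood, adjusted p = 0.0379). Tssk4 was at 120, 154 and 164 CPM in control and 188, 196 and 180 CPM in nicotine mice, again without overlap, and the log2 fold change was 0.39 (SE 0.09; adjusted p = 0.0311). Tssk1, at 243.7, 248.7 and 249.8 against 271, 293 and 310 CPM, did not overlap and missed the threshold (log2 fold change 0.26, SE 0.07; edgeR adjusted p = 0.0638). How many of all genes separated the groups without overlap was not counted in any class, so such separation is only a description of the values. Counted as UMIs per cell, Tssk2 was 3.47 ± 0.15 in control and 3.49 ± 0.38 in nicotine mice. Tssk4 was 2.98 ± 0.36 and 3.26 ± 0.41, and Tssk1 5.08 ± 0.17 and 5.05 ± 0.48. Median UMIs per cell in this class were 16513 ± 392 in control and 14552 ± 820 in nicotine mice, lower in every nicotine mouse.

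Of the 6 members tested in that class 2 were called, both higher, against 1.72% of all genes, and 214 of the 248 genes called were higher. The summed level of the 10 round spermatid markers was also higher in nicotine mice, at 2118 to 2180 CPM against 1665 to 1842 CPM, with 10 of 10 markers up and none at 0, while late spermatocyte markers were at 11807 to 12782 against 12007 to 12480 CPM. The part of this shift in the Tssk values was not tested. The calls were not stable to the sample: leaving out any mouse but control mouse 3 left 0 members called, against 0.00679% to 0.462% of all genes. Over all alternatives the adjusted p (edgeR, DESeq2) lay between 0.00245 and 0.217 for Tssk2 and between 0.000364 and 0.13 for Tssk4.

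Low-UMI late spermatocyte-like cells went the other way. Tssk6 was at 339, 376 and 347 CPM in control and 203, 250 and 233 CPM in nicotine mice, with no overlap (log2 fold change -0.65, SE 0.10; adjusted p = 2.8e-05 by edgeR). Tssk2 was at 377, 455 and 412 against 294, 312 and 333 CPM (log2 fold change -0.42, SE 0.09; adjusted p = 0.00602). Tssk3 was at 170, 195 and 177 against 122, 138 and 147 CPM (log2 fold change -0.43, SE 0.12; adjusted p = 0.0318). All 3 nicotine mice were below all 3 control mice in each gene, again without a count of such separation over all genes. Tssk1 (-0.26, adjusted p = 0.218) and Tssk4 (-0.40, adjusted p = 0.201) were not called by edgeR, and Tssk5 had 42 UMIs and was not tested.

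Of the 5 members tested 3 were called, all lower, against 1.9% of all genes, and 173 of the 179 genes called were lower. These are the members with the largest shares of elongating-cell UMIs, and the elongating spermatid markers themselves were lower in this class, 10 of 10 with none at 0, at 19063 to 24098 CPM in nicotine against 23712 to 31143 CPM in control mice. Leydig markers were lower in 7 of 8, with 77.1 to 102 against 127 to 209 CPM, and Sertoli markers in 8 of 10, with 35.8 to 59.3 against 66.4 to 70.0 CPM. Sertoli-like cells, read above as background, also had lower means of the 3 called members in nicotine mice. In Sertoli-like cells Tssk2 was at 326 ± 28.9 in control and 230.0 ± 42.2 CPM in nicotine mice, Tssk6 at 327 ± 5.64 and 264 ± 35.7 CPM, both without overlap, and Tssk3 at 136 ± 12.9 and 104 ± 23.1 CPM. The other classes read as background were mixed. In Leydig-like cells Tssk2 was at 58.6 ± 5.89 (control) and 66.2 ± 32.0 CPM (nicotine) and Tssk6 at 71.3 ± 45.4 and 51.7 ± 32.6 CPM. Early spermatocyte-like cells had Tssk2 at 41.9 ± 1.19 and 42.9 ± 18.0 CPM and Tssk6 at 49.1 ± 7.93 and 48.4 ± 9.29 CPM. Stromal-like cells had Tssk6 at 162 ± 33.4 and 113 ± 70.3 CPM. Macrophage-like cells, as few as 14 in a mouse, had Tssk6 at 135 ± 8.17 and 37.7 ± 36.7 CPM, but Tssk3 at 55.3 ± 11.4 and 80.3 ± 31.9 CPM. The part of these shifts in the Tssk values of low-UMI late spermatocyte-like cells was not tested. Tssk6 kept its call in 12 of 12 alternatives and Tssk2 in 10 of 12. Tssk3 kept it in 4 of 12, and with cells of at least 1000 UMIs only Tssk6 was called, against 0.111% of all genes. Without nicotine mouse 1 the count of members was also 1, against 0.556% of all genes.

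**Figure D5:**
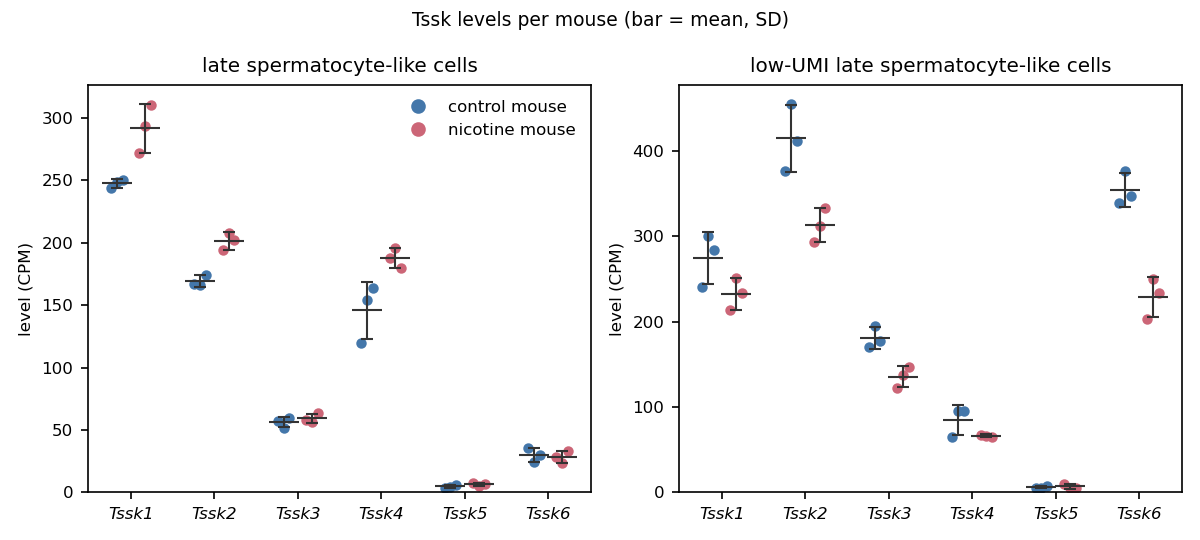
Level in CPM (vertical axis, from 0) of each member per mouse in late spermatocyte-like (left) and low-UMI late spermatocyte-like cells (right), blue for control and red for nicotine, with the mean and SD of 3 mice. Tssk2 is higher in nicotine mice on the left (194 to 208 against 166 to 174 CPM) and lower on the right (294 to 333 against 377 to 455 CPM).

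The difference between these 2 classes was itself tested, in a fit over all 12 sums with the mouse as a block, chosen after the data had been seen. The nicotine change in low-UMI late minus that in late spermatocyte-like cells was -0.70 (SE 0.09) for Tssk2, -0.78 (SE 0.15) for Tssk4, -0.53 (SE 0.09) for Tssk1, -0.54 (SE 0.13) for Tssk3 and -0.59 (SE 0.12) for Tssk6 on the log2 scale (edgeR adjusted p = 7.6e-13, 1.1e-05, 1.8e-06, 0.000991 and 0.000101). Tssk5 was not called (-0.25, SE 0.51; adjusted p = 0.877). The 5 calls among 6 members stand against 5.51% of all genes. No alternative to this fit was run, neither with a mouse left out nor with DESeq2, so its stability is not known. The whole-testis level did not differ for any member (log2 fold changes -0.07 to 0.07, edgeR adjusted p of 0.987 to 0.988, none with an unadjusted p under 0.05 and none called by DESeq2), against 0.459% of all genes; this level mixes RNA per cell with the share of each class.

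In the remaining germ cell classes no member was called by edgeR or DESeq2. Early spermatocyte-like cells had no member with an unadjusted p under 0.05, against 1.85% of all genes called. In the joint early and late spermatocyte-like class Tssk2, Tssk3 and Tssk6 had an unadjusted p under 0.05, with Tssk6 at 71.1, 78.8 and 65.7 CPM in control and 60.5, 38.2 and 43.1 CPM in nicotine mice (log2 fold change -0.59, SE 0.16; edgeR adjusted p = 0.164), against 0.0861% of all genes called. In low-UMI early spermatocyte-like cells Tssk2 and Tssk6 had one, with Tssk6 at 132, 124 and 110 against 85.3, 81.0 and 98.6 CPM (log2 fold change -0.45, SE 0.11; edgeR adjusted p = 0.131), against 0% of all genes called. Over 6 mice these classes had Tssk6 at 59.6 ± 15.9 and 105 ± 20.6 CPM, against 61.5 ± 37.0 in Leydig-like and 296 ± 41.4 CPM in Sertoli-like cells. In the joint class 0 of the 5 members tested had a log2 fold change above 0, against 50.1% of all genes.

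Partners and other kinases changed in few places. In late spermatocyte-like cells 1 of 12 partners rose and 1 fell. Izumo1, the sperm protein for egg fusion, went from 44.7 ± 2.53 to 57.8 ± 2.64 CPM (log2 fold change 0.39; edgeR adjusted p = 0.0232), and H2afx, the histone variant whose phosphorylation marks spermatid chromatin remodelling, from 114 ± 8.95 to 89.5 ± 4.52 CPM (log2 fold change -0.34; adjusted p = 0.0329). Of 20 other kinases tested there 1 fell, Nek2, a centrosome kinase, from 132 ± 16.6 to 103 ± 1.55 CPM (-0.34; edgeR adjusted p = 0.0311). With one mouse left out, Nek2 and H2afx each kept their call only without control mouse 3, and Izumo1 only without control mouse 3 or nicotine mouse 1. In low-UMI late spermatocyte-like cells 1 of 12 partners fell, Tsks, from 271 ± 11.97 to 204 ± 11.97 CPM (-0.43; edgeR adjusted p = 0.0109), a call lost in 3 of 12 alternatives, while Tsacc (590 ± 63.6 and 606 ± 61.1 CPM) and Odf2 (1586 ± 69.2 and 1450 ± 74.1 CPM) were not called, and 0 of 19 kinases were. In early spermatocyte-like cells Hspa8, a constitutive chaperone, rose from 119 ± 23.7 to 179 ± 11.1 CPM (0.53; edgeR adjusted p = 0.0481), a call lost in 6 of 12 alternatives, among them 5 of the 6 that leave out a mouse and the one with doublets left in. The median log2 fold change of the partner list was -0.04 in late and -0.0014 in low-UMI late spermatocyte-like cells, against -0.0059 and 0.0127 over all genes. In round, elongating and low-UMI elongating spermatid-like cells no partner and no kinase was called by edgeR.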

How the data were processed

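Both testes of each mouse were dissociated and captured with 10x 3' v3 chemistry. The deposited values are raw UMI counts per gene and barcode; the submitters' processing notes name Cell Ranger 7.2.0 and the mm10 build. The members and lists were chosen with earlier results of these data known. Barcodes were dropped below 500 UMIs or 250 genes, or from 20% mitochondrial UMIs upward, and the highest Scrublet scores (0.8% per 1000 cells) were removed as doublets. Cells were clustered in scanpy 1.11.5 (2000 variable genes without 40 member, partner and kinase genes, 30 components, 15 neighbours, Leiden resolution 1) and named from marker lists. Counts summed per mouse and class were tested with edgeR 4.0.16 (quasi-likelihood, filterByExpr, TMM, Benjamini-Hochberg over all genes, called under 0.05) and, as an alternative, DESeq2 1.42.0, in R 4.3.3; the edgeR step was tested on simulated counts. Class ratios and positions used exact tests over mice. Named genes were the members, the called genes of the partner and kinase lists, Tsks, Tsacc and Odf2, and the 3 genes most like each member. The labels do not say whether mice shared a litter or day. PCR duplicates are collapsed in UMIs, and the SDs hold differences between mice. Alternatives were another normalization, no filter, a replicate block, each mouse left out, doublets left in, resolution 1.5 and at least 1000 UMIs per cell.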

Additional observations from a re-analysis of the deposited data

Results flagged for a closer look

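The nicotine change in low-UMI late spermatocyte-like cells differed from that in late spermatocyte-like cells for 5 members, by a test of the difference itself (edgeR, mouse as a block). That test was chosen after the data had been seen, and it called 5.51% of all genes. No alternative to it, such as leaving out a mouse, was run. The log2 difference was -0.53 for Tssk1, -0.70 for Tssk2, -0.54 for Tssk3, -0.78 for Tssk4 and -0.59 for Tssk6. Elongating spermatid markers were lower in nicotine mice in the former class, and round spermatid markers were higher in the latter; their part in these differences was not tested.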

How the results depend on the processing

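With one mouse left out, the number of members called ran from 0 to 2 in late spermatocyte-like cells, from 1 to 4 in low-UMI late spermatocyte-like cells and from 0 to 1 in the joint early and late class. The share of all genes called ran from 0.00679% to 4.27%, 0.556% to 2.38% and 0% to 0.194% in the same classes. Class ratios on the log2 scale ran from 0.59 to 0.62 (Tssk1), 0.14 to 0.19 (Tssk2), 1.49 to 1.51 (Tssk3), 0.89 to 1.00 (Tssk4), 2.08 to 2.38 (Tssk5) and 1.76 to 1.79 (Tssk6), each with an exact p of 0.0625, the smallest that 5 mice allow. Position differences ran from -0.19 to 0.11 bins for Tssk1, -0.074 to 0.018 for Tssk2 and -0.0076 to 0.077 for Tssk4. Uncalled log2 fold changes crossed 0 in late spermatocyte-like cells for Tssk6 (-0.22 to 0.090), Odf2 (-0.069 to 0.030) and Tsacc (-0.040 to 0.21), and in low-UMI late cells for Tsacc (-0.075 to 0.10). They also crossed 0 in round cells for Tssk3 (-0.028 to 0.045) and Tssk4 (-0.047 to 0.10). In elongating cells this held for Tssk1 (-0.036 to 0.041), Tssk4 (-0.0086 to 0.19) and Tssk5 (-0.40 to 0.089). In the whole testis it held for Tssk2 (-0.022 to 0.16), Tssk3 (-0.024 to 0.19), Tssk4 (-0.052 to 0.17), Tssk5 (-0.20 to 0.035) and Tssk6 (-0.033 to 0.15).

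Doublets left in gave 2 calls in the joint class, no filter gave 1 in low-UMI early cells, and at least 1000 UMIs left 1 in low-UMI late cells. Of all genes, 0.202%, 0.443% and 0.111% were called in these fits, in that order. The elongating change of Tssk1 was 0.0041 with no filter, and that of Tssk5 was 0.030 with doublets left in and 0.12 at resolution 1.5, where Odf2 in late spermatocyte-like cells was 0.0078. The Tssk2 class ratio was 0.17 in thinned cells and 0.094 at resolution 1.5, each with an exact p of 0.0625. As UMIs per cell the Tssk3 and Tssk6 ratios were -1.02 and -0.75. The cause was not tested. Genes called in late spermatocyte-like cells numbered 248, against 488 with no filter, 406 with doublets left in, 1475 at resolution 1.5 and 1 to 636 with one mouse left out. In low-UMI late cells they numbered 179, against 57 by DESeq2, 362 with the replicate block, 85 at resolution 1.5, 7 with at least 1000 UMIs and 55 to 234 with one mouse left out. With doublets left in there was no low-UMI late class. The labels do not say that replicate numbers pair mice, so the numbers were not taken as a pairing. Same-numbered mice correlated at -0.06, 0.61 and 0.07 in round and at -0.08, 0.55 and 0.18 in elongating spermatid-like cells. With the replicate block 1 member, Tssk6, was called in low-UMI elongating cells (-0.26, edgeR adjusted p = 0.0312), against 0.92% of all genes.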
